A study of Mus musculus with 4 samples.

Results

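The genes described here are feedback and target genes of canonical Wnt signaling, measured in whole cochleas at embryonic day 15 (E15) from *Meis2* mutant and wild-type mouse embryos. They were chosen by symbol from a list of 10 genes, *Axin2*, *Lef1*, *Tcf7*, *Sp5*, *Nkd1*, *Lgr5*, *Rnf43*, *Znrf3*, *Notum* and *Wif1*. Of these, 9 were read on the arrays, each by 1 probe set among 35556 (19938 genes were named by a probe set), and *Tcf7* is not named in the probe annotation used here. The mutants were *Meis2* flox/flox; *Pax2* Cre/+ embryos, in which *Meis2* is deleted by a Cre recombinase that is active in the otic placode and the structures formed from it. The controls were wild-type embryos, and the sources do not say whether they carried a floxed allele or the Cre transgene. There were 2 mutant arrays (replicates 1 and 2) and 2 wild-type arrays (replicates 2 and 3). Nothing in the sources says whether the samples of a genotype were separate animals or pools, so the p-values measure only the spread between these arrays, which may be technical. Because the whole cochlea was used, fewer cells of a type and less RNA per cell cannot be told apart.

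In canonical Wnt signaling a secreted Wnt ligand binds a Frizzled receptor and an Lrp5 or Lrp6 co-receptor, the complex that destroys β-catenin is held back, and β-catenin enters the nucleus and joins transcription factors of the TCF/LEF family. Many of the genes switched on in this way feed back on the pathway, and for this reason *Axin2* and its companions are widely used as a readout of Wnt activity. In the cochlea, Wnt signaling is known to act on proliferation in the young duct and on the progenitors of hair cells and supporting cells, where *Lgr5* is a marker.

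Signals are log2 values from the robust microarray analysis (RMA) algorithm, differences are mutant minus wild type on that scale, and the test was limma's moderated test, called at an adjusted p under 0.05 (Benjamini-Hochberg, every probe set included). The array medians were 6.73 and 6.72 in mutants and 6.63 and 6.65 in wild type, and the median difference over all probe sets was 0.11. The *Meis2* probe set gave 9.61 and 9.80 in mutants and 9.64 and 9.38 in wild type, and since it is not known here which exons it reads, it does not check the genotype. *Xist*, the RNA that silences an X chromosome in females, stood at 11.83 and 11.84 in mutants and at 5.54 and 11.51 in wild-type replicates 2 and 3, so wild-type replicate 2 stood apart from the other 3 arrays in this marker of female cells.

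The Wnt target genes differed little between genotypes. *Lef1*, *Notum* and *Wif1* were higher in mutant cochleas, by 1.30-fold at most, no target gene was lower past the threshold, and *Axin2*, *Sp5*, *Nkd1*, *Lgr5*, *Rnf43* and *Znrf3* did not pass the test. The 3 calls are 33.3 percent of the 9 genes, beside 37.3 percent of all probe sets called in either direction, with 21.6 percent higher and 15.7 percent lower. The median difference of the 9 genes was 0.22 (0.14 after scaling the arrays to equal medians, which took that of all probe sets to 0.03), and their median absolute difference of 0.22 lay beside 0.28 over all probe sets. The 95% confidence intervals of all 9 genes lay inside a 2-fold difference in either direction, with the lowest bound at -0.46 and the highest at 0.60. Differences of 2-fold or more were rare on these arrays, at 6.41 percent of all probe sets and 16.4 percent of those called. In 7 of the 9 genes both mutant arrays were above both wild-type arrays, which held for 49.7 percent of all probe sets, while both mutant arrays were below both wild-type arrays in 0 of the 9 genes and in 26.4 percent of all probe sets, so that the groups stood apart in 7 of 9 genes and in 76.1 percent of all probe sets. Ranked among all probe sets, the difference of *Lef1* was above that of 79.5 percent, *Notum* above 77.3 percent and *Wif1* above 74.4 percent, while *Nkd1* and *Sp5*, at the other end, were above 39.9 and 34 percent. With 2 arrays against 2, an exact two-sided permutation test of a single gene cannot go below p = 0.333.

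**Figure D1:**
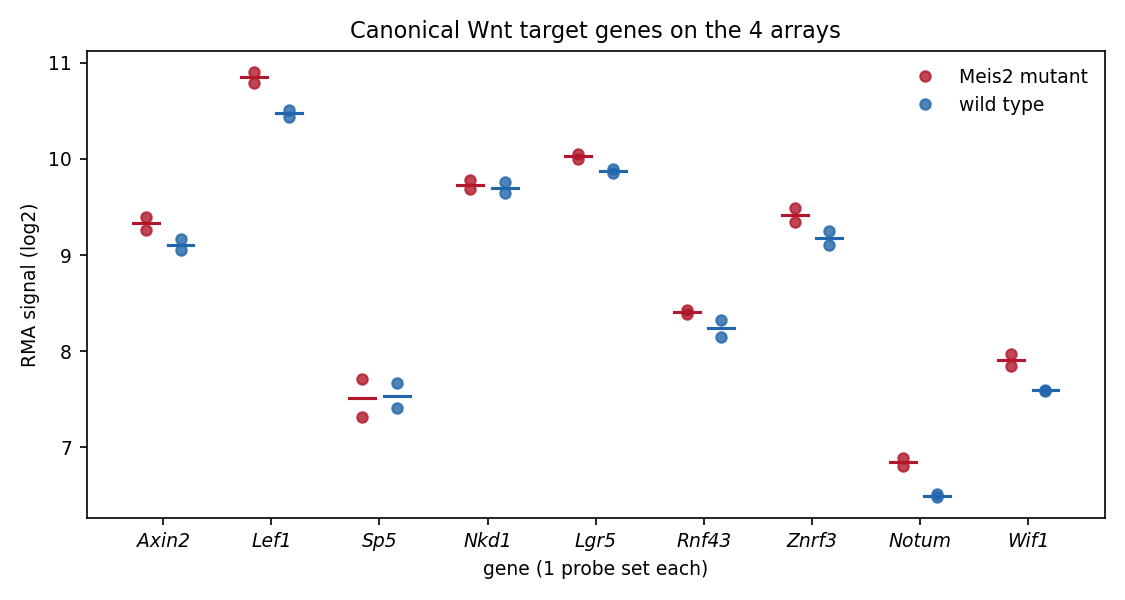
RMA signal on the log2 scale (y axis) of each measured Wnt target gene (x axis) on the 4 arrays, with Meis2 mutants to the left of wild type in each pair. Points are single arrays and horizontal lines are the means of 2 arrays. The groups overlap for Sp5 and Nkd1, and the mutant points are above the wild-type points for the other 7 genes, for Lef1 by 10.79 and 10.90 in mutants against 10.44 and 10.51 in wild type.

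Among the transcription factors, *Lef1*, a TCF/LEF factor through which β-catenin acts on DNA, was higher in mutants. Its signal was 10.79 and 10.90 in mutants, against 10.44 and 10.51 in wild type. Every mutant value was above every wild-type value, and the gap between the groups was larger than the gap within either. *Lef1* had the largest difference among the 9 genes, at 0.37 ± 0.09 (standard error). Its 95% interval was 0.14 to 0.60 and its adjusted p was 0.0298 in limma. The call was kept after repeated quantile normalization (0.43, adjusted p = 0.0214 in limma). The call ended when any of the 4 arrays was left out (adjusted p of 0.0577 without wild-type replicate 3 to 0.156 without *Meis2* mutant replicate 2, and 0.0864 without wild-type replicate 2) and after median scaling (0.29, adjusted p = 0.0628).

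*Sp5*, a zinc finger factor of the Sp family and a direct Wnt target in other tissues, gave 7.71 and 7.31 in mutants, against 7.41 and 7.66 in wild type. The values of the genotypes interleaved, and each genotype held a high and a low array. *Sp5* thus differed by -0.03 ± 0.17, with a 95% interval of -0.46 to 0.41 and an adjusted p of 0.915 in limma. This was the widest interval among the 9 genes, so *Sp5* was the least precisely measured. Its sign turned without *Meis2* mutant replicate 2 (0.17) and without wild-type replicate 3 (0.10).

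Of the feedback genes inside the cell, *Axin2*, the inducible scaffold of the complex that destroys β-catenin, gave 9.26 and 9.40 in mutants, against 9.17 and 9.05 in wild type. Both mutant arrays were the higher, but the difference of 0.22 ± 0.09 did not pass the test (95% interval -0.02 to 0.47, adjusted p = 0.123 in limma). *Nkd1*, which binds Dishevelled and dampens the signal, gave 9.69 and 9.78 in mutants, against 9.64 and 9.76 in wild type. These ranges overlapped, with the higher wild-type array between the mutant arrays. *Nkd1* differed by 0.03 ± 0.09 (95% interval -0.20 to 0.27, adjusted p = 0.778 in limma), and its sign turned after median scaling (-0.05), without *Meis2* mutant replicate 2 (-0.0094) and without wild-type replicate 2 (-0.02).

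At the cell membrane, *Lgr5* is a receptor for R-spondins, and *Rnf43* and *Znrf3* are the ubiquitin ligases that R-spondins and Lgr receptors hold back and that otherwise remove Frizzled receptors from the surface. *Lgr5* gave 10.052 and 10.004 in mutants, against 9.90 and 9.86 in wild type. The arrays of each genotype lay within 0.05 of each other and the groups stood apart, yet the difference of 0.15 ± 0.08 did not pass the test (95% interval -0.05 to 0.35, adjusted p = 0.187 in limma). *Rnf43* gave 8.39 and 8.43 in mutants, against 8.32 and 8.15 in wild type. Its mutant arrays lay close together and its wild-type arrays further apart, and at 0.17 ± 0.09 it did not pass the test either (95% interval -0.07 to 0.41, adjusted p = 0.208 in limma). *Znrf3* gave 9.34 and 9.49 in mutants, against 9.25 and 9.11 in wild type. Of the genes that did not pass the test, *Znrf3* had the largest difference, at 0.24 ± 0.10 (95% interval -0.02 to 0.50, adjusted p = 0.124 in limma). For all 3 genes both mutant arrays were above both wild-type arrays, which held for 49.7 percent of all probe sets.

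The secreted antagonists both rose. *Notum*, an enzyme that strips the lipid from Wnt ligands and so silences them, gave 6.81 and 6.89 in mutants, against 6.51 and 6.49 in wild type. The arrays of a genotype lay within 0.08 of each other, and the groups did not overlap. *Notum* was higher by 0.35 ± 0.08, with a 95% interval of 0.14 to 0.56 and an adjusted p of 0.0288 in limma. The call ended without any one of the arrays (adjusted p of 0.0664 without wild-type replicate 2 to 0.154 without *Meis2* mutant replicate 2), after median scaling (adjusted p = 0.0664) and after repeated quantile normalization (adjusted p = 0.0694).

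*Wif1*, a secreted protein that binds Wnt ligands, gave 7.97 and 7.84 in mutants, against 7.60 and 7.59 in wild type. The wild-type arrays were nearly equal and both mutant arrays were above them. *Wif1* was higher by 0.31 ± 0.09, with a 95% interval of 0.09 to 0.54 and an adjusted p of 0.0448 in limma. The call was kept after repeated quantile normalization (0.35, adjusted p = 0.0351 in limma). The call ended without any one of the arrays (adjusted p of 0.102 without wild-type replicate 2 to 0.206 without *Meis2* mutant replicate 1), after median scaling (adjusted p = 0.1) and with a trended prior (adjusted p = 0.0633).

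**Figure D2:**
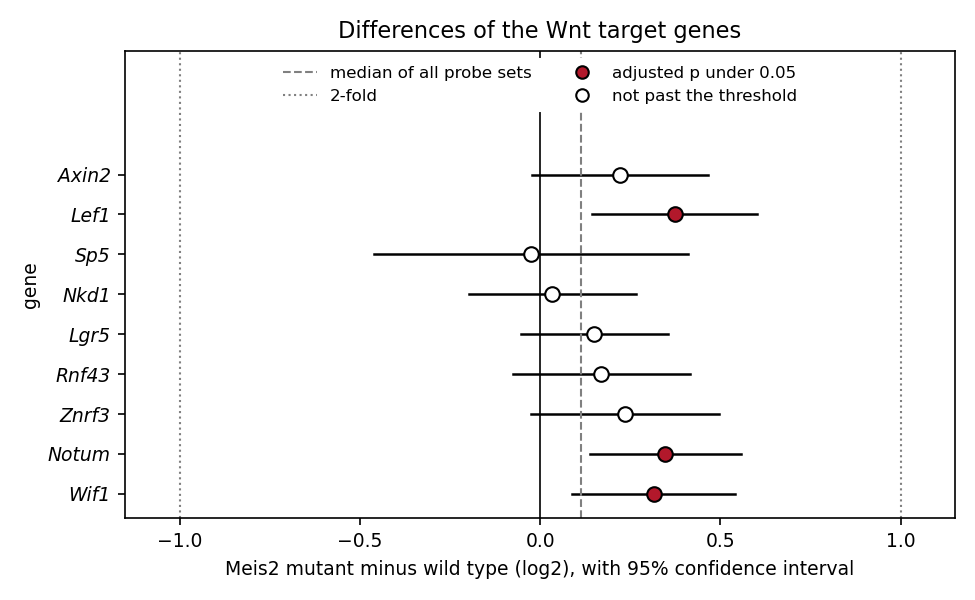
Mutant minus wild-type signal in log2 units (x axis) of the measured Wnt target genes (y axis), with bars for the 95% confidence interval from limma. Filled points passed an adjusted p of 0.05, the dashed line is the median of all probe sets (0.11) and the dotted lines mark a 2-fold difference. No bar reaches a dotted line, and the bars of Lef1, Notum and Wif1 lie above 0.

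To see how the calls depended on single arrays and on scaling, the differences were recomputed for every gene. Leaving out either mutant array or either wild-type array left 0 of the 9 genes past the adjusted threshold with limma, and median scaling also left 0, whereas the fit to the deposited values gave 3. At an unadjusted p under 0.05 the count was 3 in the deposited values, 3 after median scaling, 2 without *Meis2* mutant replicate 1, 1 without *Meis2* mutant replicate 2 and 3 without either wild-type array, and significance analysis of microarrays called 7 of the 9 in the deposited values. After repeated quantile normalization 2 of the 9 genes passed the adjusted threshold with limma, *Lef1* (0.43, adjusted p = 0.0214) and *Wif1* (0.35, adjusted p = 0.0351). Of all 35556 probe sets, significance analysis of microarrays called 26962 in the deposited values. With limma, 13268 of them passed in the deposited values and 11501 after median scaling. The count over all probe sets was also lower in each fit without an array. *Axin2*, *Lef1*, *Lgr5*, *Rnf43*, *Znrf3*, *Notum* and *Wif1* kept a positive difference in each fit named here, repeated quantile normalization included. In these 7 genes both mutant arrays were above both wild-type arrays, so leaving out an array could not turn the sign. The same was true of 49.7 percent of all probe sets. Significance analysis of microarrays used the same difference as limma. The sign could turn only under the 2 scalings, and it did not. Across all of these fits *Lef1* ran from 0.29 to 0.43, *Notum* from 0.26 to 0.39 and *Wif1* from 0.23 to 0.38. *Lgr5* ran from 0.07 to 0.19, reaching the lowest value of the 7, and *Axin2* from 0.14 to 0.29.

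**Figure D3:**
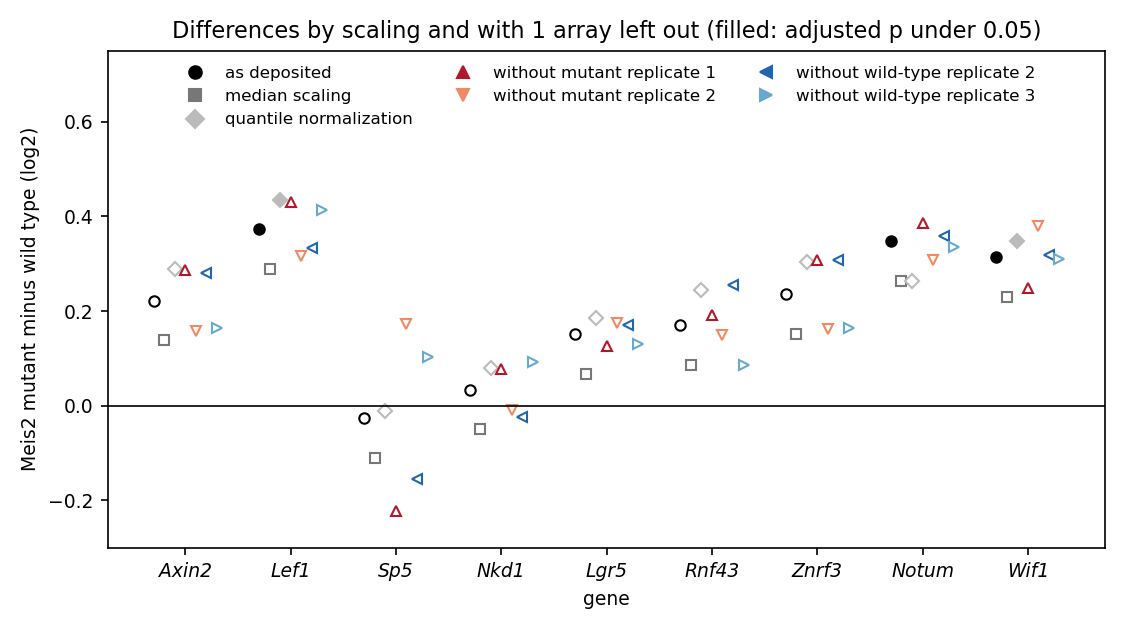
Mutant minus wild-type signal in log2 units (y axis) of the Wnt target genes (x axis), from the deposited values, after 2 scalings and with each of the 4 arrays left out in turn. Filled markers passed an adjusted p of 0.05 from limma. All markers of a fit without an array are open, and the markers of Sp5 and Nkd1 fall on both sides of 0.

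The promoters of these genes were searched for the letters that TCF/LEF factors bind (CTTTGAA or CTTTGAT, both strands) and for the Meis site (TGACAG, both strands). The window ran from 250 bases before to 50 bases after each RefSeq start (build GRCm38.p6). Sites outside this window were not searched, nor was the sequence to which the paper says Meis binds indirectly. Of the 10 listed genes, 7 had at least 1 window, with 12 windows in all, and *Lgr5*, *Znrf3* and *Notum* had none in the table. The TCF/LEF letters were found in 1 of these genes, *Sp5*, and in 9.88 percent of all genes with a window (8.65 percent of all 32851 windows). The Meis letters were found in *Lef1*, at 1 of its 4 starts, and in *Nkd1*, and in 21.6 percent of all genes with a window (19.2 percent of all windows). The matches are shown in capitals within their flanks, because they are the only ones in the windows of the genes described here.
*Sp5*, chr2:70474797-70474847, plus strand: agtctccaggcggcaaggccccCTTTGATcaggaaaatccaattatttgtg
*Lef1*, chr3:131156049-131156098, plus strand: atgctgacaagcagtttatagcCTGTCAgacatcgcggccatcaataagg
*Nkd1*, chr8:88527550-88527599, plus strand: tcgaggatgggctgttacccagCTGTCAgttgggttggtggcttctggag
The *Sp5* match lay 104 bases before the start. The *Lef1* and *Nkd1* matches, which read TGACAG on the other strand, lay 223 and 61 bases before their starts. Of the genes with a match, *Lef1* was higher in mutants, and *Sp5* and *Nkd1* had differences of -0.03 and 0.03 that did not pass the test. *Wif1*, which was also higher, had neither motif in its window.

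The differences in the rest of the pathway, a longer list, ran from -0.87 to 1.25, and those of all probe sets from -3.58 to 3.61. Their median was 0.18 in the rest of the pathway, beside 0.22 in the Wnt target genes. Of 98 other pathway genes, listed by role and all measured, 33 were higher and 12 lower in mutant cochleas, which is 45.9 percent called, beside 41 percent of the probe sets with 1 symbol and 37.3 percent of all probe sets. The count of these genes fell without any one of the 4 arrays, as did that of all probe sets. The 10 genes called in each of the 4 fits without an array were *Fzd9*, *Sfrp5*, *Kremen1*, *Dvl2*, *Amer1*, *Csnk1a1*, *Tcf7l1*, *Tcf7l2*, *Bcl9* and *Ctnnbip1*.

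**Figure D4:**
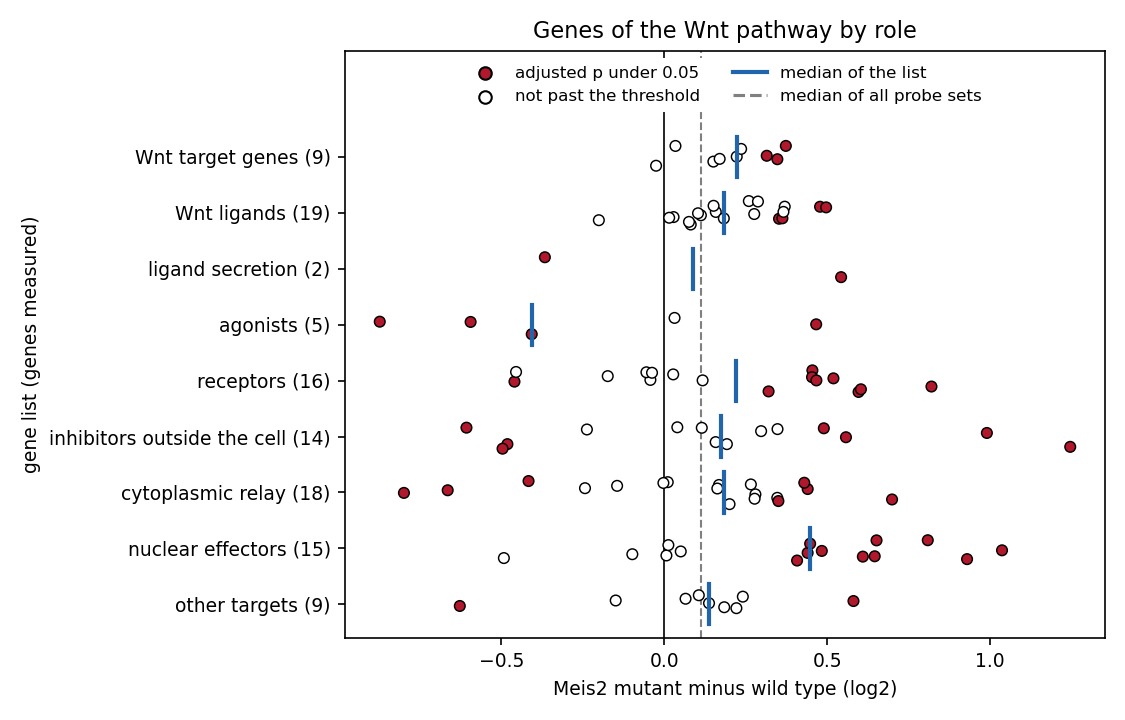
Mutant minus wild-type signal in log2 units (x axis) for Wnt pathway genes grouped by role (y axis, each with its count of genes). Points are genes, filled where the adjusted p from limma was under 0.05, the solid blue line is the median of a list and the dashed line the median of all probe sets (0.11). The nuclear effectors have the highest median (0.45) and the agonists the lowest (-0.41), while the target genes lie between -0.03 and 0.37.

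The group with the highest median was that of the nuclear effectors (median 0.45). Of these, 10 of 15 were higher, none was lower past the threshold and 5 did not pass. The share called was 66.7 percent, beside 37.3 percent of all probe sets. Without *Meis2* mutant replicate 1 the count was 5, and without *Meis2* mutant replicate 2 it was 4. *Tcf7l2*, a TCF/LEF factor like *Lef1*, gave 10.51 and 10.38 in mutants, against 9.58 and 9.45 in wild type (difference 0.93, adjusted p = 0.00445 from limma). *Tcf7l1*, the member of that family known mainly as a repressor, gave 10.37 and 10.38 in mutants, against 9.59 and 9.54 in wild type (difference 0.81, adjusted p = 0.00402 from limma). *Ctnnbip1*, an inhibitor that keeps β-catenin from TCF factors, gave 10.35 and 10.40 in mutants, against 9.25 and 9.43 in wild type (difference 1.04, adjusted p = 0.00393 from limma). In each of these genes the groups stood far apart relative to the arrays of a genotype. *Bcl9*, a co-activator that binds β-catenin, rose by 0.65 (adjusted p = 0.00634 from limma). The others that were higher were *Bcl9l*, *Pygo2* and the co-repressors *Tle1*, *Tle2*, *Tle3* and *Tle4*. β-catenin itself (*Ctnnb1*), which was named after its values were seen, gave 12.44 and 12.50 in mutants, against 12.48 and 12.45 in wild type, with a difference of 0.0065 (95% confidence interval -0.20 to 0.21, adjusted p = 0.955 from limma).

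Among receptors and their partners, 8 of 16 were higher, 1 was lower and 7 did not pass (56.2 percent called, beside 37.3 percent of all probe sets). *Fzd9*, a Frizzled receptor, gave 10.66 and 10.82 in mutants, against 9.846 and 9.997 in wild type (difference 0.82, adjusted p = 0.00654 from limma). *Lgr6*, a relative of *Lgr5* that also binds R-spondins, rose by 0.60 (adjusted p = 0.0153 from limma), *Fzd2* rose by 0.60 and *Fzd8* by 0.52. *Fzd4* was the one lower, with a difference of -0.46 (adjusted p = 0.0275 from limma). Only 1 receptor passed without *Meis2* mutant replicate 1, 2 without *Meis2* mutant replicate 2, 7 without wild-type replicate 2, where *Fzd2* did not pass (0.53, adjusted p = 0.0563 from limma), and 6 without wild-type replicate 3, where *Fzd4* did not pass (adjusted p = 0.0665 from limma).

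The agonists went mainly the other way, with 3 of 5 lower, 1 higher and *Rspo4* not past the threshold. The share called was 80 percent of these 5 genes, beside 37.3 percent of all probe sets. *Rspo3*, an R-spondin and so a ligand of *Lgr5*, gave 7.16 and 7.22 in mutants, against 7.87 and 8.26 in wild type (difference -0.87, adjusted p = 0.013 from limma). *Rspo2* fell by 0.41 (adjusted p = 0.0278 from limma) and *Ndp*, a ligand of *Fzd4*, fell by 0.59 (adjusted p = 0.0314 from limma). *Rspo1* rose by 0.47 (adjusted p = 0.0119 from limma). None of these 4 calls was kept without *Meis2* mutant replicate 1 or without *Meis2* mutant replicate 2, while 2 were kept without wild-type replicate 3 and 3 without wild-type replicate 2, where *Rspo2* did not pass (-0.43, adjusted p = 0.0617 from limma).

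Of 19 Wnt ligands, 4 were higher (21.1 percent, beside 21.6 percent of all probe sets) and none was lower past the threshold. These were *Wnt10b* (0.50), *Wnt8a* (0.48), *Wnt8b* (0.36) and *Wnt7b* (0.35), and the signal of *Wnt8b* lay in the range of olfactory and vomeronasal receptor probe sets, taken here as dim. The ligand count was 2 after median scaling, 2 after repeated quantile normalization, 9 when only probe sets with 1 symbol were tested, 0 without either mutant array and 1 without wild-type replicate 2. Of the proteins that release Wnt ligands, *Porcn*, the enzyme that adds their lipid, rose by 0.54 and *Wls*, their carrier to the cell surface, fell by 0.37 (adjusted p = 0.0274 and 0.0245 from limma). The *Porcn* call ended after median scaling (adjusted p = 0.0512), and without *Meis2* mutant replicate 2 or wild-type replicate 3, and the *Wls* call ended without any one of the 4 arrays.

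Of 14 inhibitors outside the cell, 4 were higher, 3 were lower and 7 did not pass (50 percent called, beside 37.3 percent of all probe sets). *Sfrp5*, which binds Wnt ligands as *Wif1* does, gave 8.65 and 8.66 in mutants, against 7.26 and 7.57 in wild type (difference 1.25, adjusted p = 0.00432 from limma). *Kremen1*, a receptor of Dkk proteins, gave 10.39 and 10.54 in mutants, against 9.48 and 9.47 in wild type (difference 0.99, adjusted p = 0.00369 from limma). Both differences exceeded the upper confidence bounds of *Notum* and *Wif1*. *Dkk4* rose by 0.56 and *Draxin* by 0.49, while *Dkk2* fell by 0.61, *Sostdc1* by 0.50 and *Sfrp4*, another dim probe set, by 0.48. Both wild-type values of *Dkk4* (5.41 and 5.64) lay under the dim limit of 5.72, and both mutant values (6.02 and 6.14) lay above it. Without *Meis2* mutant replicate 1, 3 of the 14 passed, and without *Meis2* mutant replicate 2, 2 of them did.

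In the cytoplasmic relay, 4 of 18 genes were higher, 3 were lower and 11 did not pass (38.9 percent called, beside 37.3 percent of all probe sets). *Dvl2*, a Dishevelled protein that carries the signal from the receptor, rose by 0.70 (adjusted p = 0.00495 from limma), and *Gsk3a*, *Dvl3* and *Apc2* rose by 0.43, 0.44 and 0.35. *Amer1* and *Csnk1a1*, both parts of the machinery that destroys β-catenin, fell by 0.80 and 0.67 (adjusted p = 0.00682 and 0.00591 from limma), and *Apc*, a scaffold of that machinery, fell by 0.42. Only 3 of the 18 passed without *Meis2* mutant replicate 1, without *Meis2* mutant replicate 2 or without wild-type replicate 3. Of 9 other target genes, *Myc* rose by 0.58 (adjusted p = 0.0103 from limma), *Bambi* fell by 0.63 (adjusted p = 0.00933 from limma) and the other 7 did not pass (1 call without *Meis2* mutant replicate 1 and 0 without *Meis2* mutant replicate 2), which leaves the target genes of both lists with 4 higher and 1 lower among 18, or 27.8 percent called, beside 37.3 percent of all probe sets.

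Of 83 measured markers of cell types, 23 were higher and 15 lower in mutants, or 45.8 percent called, beside 41 percent of the probe sets with 1 symbol and 37.3 percent of all probe sets. Of 7 measured markers of otic epithelium, 4 were higher and 1 was lower. Their list means were 9.49 and 9.64 in mutants and 9.19 and 9.20 in wild type. All 7 were above the dim limit of 5.72, as were 78 of the 83 markers and 23056 of all 35556 probe sets. Clearing this limit therefore does not single out the labelled tissue. Of 8 prosensory and supporting cell markers, among the cells that hold *Lgr5*, 1 was higher and 3 were lower, with means of 8.45 and 8.60 in mutants and 8.92 and 8.92 in wild type. Of 6 cartilage markers 2 were higher (means 12.30 and 12.32 in mutants, 12.18 and 12.08 in wild type), and of 6 markers of periotic mesenchyme 2 were lower (means 10.41 and 10.49 in mutants, 10.64 and 10.80 in wild type). Of 7 skeletal muscle markers 6 were higher, with means of 6.86 and 7.31 in mutants and 6.20 and 6.43 in wild type. Of 8 hair cell markers 3 were higher and 1 was lower, of 7 markers of non-sensory duct cells (roof included) 2 were higher and 1 was lower, of 8 spiral ganglion neuron markers 4 were lower, and of 4 glia markers 1 was higher and 2 were lower. Of 5 macrophage markers 1 was higher, of 2 erythroid markers 1 was higher and 1 was lower, and of 5 markers of the hindbrain and other central nervous system 2 were higher, with 2 of the 5 above the dim limit. None of 5 endothelial and none of 5 melanocyte markers passed the test. The part of these cells in the differences of the Wnt target genes was not tested.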

How the data were processed

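RNA of mutant and wild-type cochleas was hybridized to Affymetrix Mouse Gene ST arrays. The authors deposited log2 values from RMA, a background correction, normalization and summary of each probe set. The submitters' processing notes also name the build mm8, and no probe set coordinates are given here. Scanner files were not used here.

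All tests across probe sets were run in R 4.3.3 with limma 3.58.1 (lmFit and eBayes, no covariate, no filter; 35556 probe sets), with 2 residual and 2.91 prior degrees of freedom. Probe sets were named through the platform annotation where it gives 1 symbol (21789 probe sets, 21698 with a current record). *Wnt4*, the pathway gene with several probe sets, was read at the one with the highest mean. Alternatives were significance analysis of microarrays (SAM, the methods' test, written for this work, with 6 relabelings), a trended prior, a robust prior, array weights, scaling to equal medians, another quantile normalization, removal of dim probe sets (mean at or under 5.72, the 95th percentile of 1210 olfactory and vomeronasal receptor probe sets), a fit to singly annotated probe sets, averaging of a gene's probe sets, a threshold of 0.1 and leaving out each array, where the lone array of a genotype is assumed to vary like the others. In a simulation of 35556 probe sets, 100 were given a difference of 1 and 100 a difference of 2. The limma test found 42 percent of the smaller differences and 76 percent of the larger ones. So few changed probe sets make the adjusted threshold harder to reach than on the real arrays, where 37.3 percent were called. The simulated rates therefore do not give the share of real differences that was found. The number of arrays limits the precision. The Wnt target genes, gene lists and rule for named genes were chosen with earlier results of these data known. The rule names up to 4 pathway genes of a list past the threshold in each direction, and the fuller list of nuclear effectors and the marker genes were named outside it.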

Additional observations from a re-analysis of the deposited data

How the results depend on the processing

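No paired analysis was possible because the genotypes share only 1 replicate number. The count of probe sets past the threshold (13268) was 26962 with SAM and ran from 4611 without *Meis2* mutant replicate 2 to 10895 without wild-type replicate 2 when an array was left out. Of the called probe sets 42 percent were lower in mutants, against 56 percent after median scaling. SAM as written here called 17778 probe sets higher and 9184 lower. The paper reports far fewer differentially expressed transcripts with SAM, most of them downregulated. The SAM counts given here therefore do not stand for the result of the paper. The count of Wnt target genes (3) was 7 with SAM, 2 after repeated quantile normalization and 0 after median scaling. The 4 genes that SAM added were *Axin2*, *Lgr5*, *Rnf43* and *Znrf3*. The count of other pathway genes (45) was 79 with SAM and ran from 11 without *Meis2* mutant replicate 2 to 39 without wild-type replicate 2. None of the 45 changed sign after median scaling or repeated quantile normalization. In each of the 45 the groups did not overlap, so a fit without an array could not turn the sign. The other alternatives used the same difference. *Sp5* ran from -0.22 to 0.17, *Nkd1* from -0.0242 to 0.0927 and *Ctnnb1* from -0.0243 to 0.0373 without an array, and *Nkd1* and *Ctnnb1* were at -0.0499 and -0.0777 after median scaling, which moved the median of all probe sets to 0.03 (0.11 as deposited) and that of the Wnt target genes to 0.14 (0.22 as deposited). *Ctnnb1* was at 0.11 after repeated quantile normalization. The causes were not tested, and a fit without an array has fewer samples. With 2 arrays a genotype, the smallest Wnt target difference past the threshold was 0.31 (*Wif1*) and the largest that missed it was 0.24 (*Znrf3*).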
